A study of Mus musculus with 8 samples.

Results

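Astrocytes of the dentate gyrus were split by whether a cell held a transcript of Aldh1a1, and the cells with and without it were compared. Of 24376 cells that passed the filters, among 26036 barcodes, 2363 met the rule for an astrocyte. A cell had to hold at least 3 of 5 astroglial genes (Aldoc, Slc1a3, Slc1a2, Gja1 and Ntsr2), to devote at least 0.1% of its UMIs (unique molecular identifiers, counted transcripts) to 5 genes of mature astrocytes (S100b, Aqp4, Gjb6, Grin2c and Hsd11b1), and to hold at most 1 of 8 genes of other cell types (Mog, Mag, Mobp, Cx3cr1, Cldn5, Pdgfra, Stmn2 and Eomes). At least 1 UMI of Aldh1a1 was found in 352 of these cells, which are called positive, and none in the other 2011, which are called negative. The split was thus chosen by measured Aldh1a1 counts, so Aldh1a1 and the genes of the astrocyte rule are described and not tested.

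Astrocytes clear glutamate and potassium from the space around neurons, supply cholesterol and lactate, and couple to one another through gap junctions. In the dentate gyrus they share many transcripts with the radial glia-like neural stem cells (NSCs), Slc1a3 and Aldoc among them, which is why genes of mature astrocytes are needed to set them apart. Aldh1a1 encodes a cytosolic aldehyde dehydrogenase that oxidises retinaldehyde to retinoic acid, the ligand of the retinoic acid receptors. Kcnk1 encodes a subunit of a potassium leak channel, and Igfbp2 a secreted protein that binds insulin-like growth factors.

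The cells came from 8 droplet libraries of 7 experiments. All mice were heterozygous for Nestin-GFP, which marks NSCs but is not specific to them, for Ki67-creERT2, which drives the recombinase in cycling cells, and for a tdTomato reporter, on a mixed C57BL/6J and CD1 background. Each experiment pooled 2 to 5 male and female mice given tamoxifen by gavage at 100 mg per kg for 6 days and culled on day 8, and no group went without tamoxifen. There was 1 experiment at 1 month of age and 3 at 2 months, and 3 were labelled 6 months and are described in the study's methods as 6-8 months. In 6 libraries the sort took GFP+ cells both with and without tdTomato. In the experiment at 2 months that filled 2 libraries (experiment 1), 1 library held GFP+tdTomato- cells and the other, per its label, GFP+tdTomato+ cells with GFP-tdTomato- cells. The libraries at 2 months used Version 2 of the chemistry and those at 1 and 6-8 months Version 3, so that age and chemistry cannot be told apart between them. The sort of experiment 1 at 2 months also differed from the rest, and that experiment supplied 824 of the 2363 astrocytes of the rule. Total counts ran from 4861883 to 43826338 UMIs per library and the median barcode held 1960 to 7637 UMIs. No barcode sequence was shared between libraries among the astrocytes (59 of 25976 were shared among all barcodes).

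The gate of the rule held cells of more than 1 kind, which bears on every result below. Of its 2363 cells, 936 held a UMI of at least 1 of 5 genes of oligodendrocyte precursors (Gpr17, Sox10, Pdgfra, Cspg4 and C1ql1). Gpr17, a receptor of committed oligodendrocyte precursors, was detected in 62.8% of the 913 cells with 0.1 to 0.15% of UMIs from the mature genes, in 36.7% of the 401 cells with 0.15 to 0.2% and in 5.21% of the 480 cells with 0.2 to 0.3%. Bcas1, a gene of newly forming oligodendrocytes, went from 51.5% to 32.2% and 3.96% of cells in the same bins. Aldh1l1, a folate enzyme used as an astrocyte marker, took the opposite course, from 6.35% to 17.0% and 28.1%. Aldh1a1 itself was detected in 7.78%, 14.5% and 19.2% of cells in these bins and in 23.4% of the 465 cells with 0.3 to 0.5%. Just inside the limit, between 0.1 and 0.11%, lay 247 cells, and 298 that met the rest of the rule lay just outside it, between 0.09 and 0.1%.

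**Figure D1:**
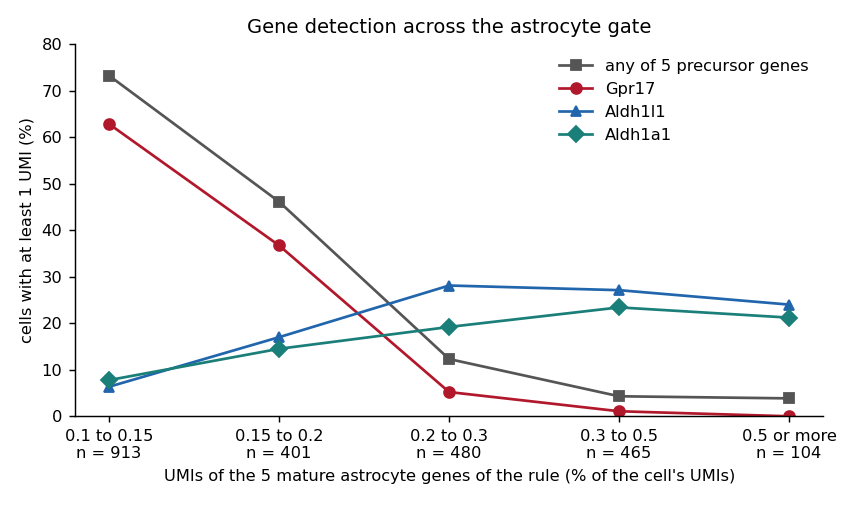
Percent of the 2363 cells of the astrocyte rule with at least 1 UMI of Gpr17, of any of the 5 precursor genes, of Aldh1l1 and of Aldh1a1 (vertical axis), in bins of the percent of each cell's UMIs that came from the 5 mature genes (horizontal axis, with the number of cells). Gpr17 falls from 62.8% to 0% across the bins, and Aldh1a1 is lowest, at 7.78%, in the bin where Gpr17 is highest.

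The cells with precursor genes were deeper and less astrocytic than the rest. Their median was 7538 UMIs against 2241 in the 1427 cells without these genes. S100b, which oligodendrocyte precursors also express, supplied 91.7% of their UMIs of the mature genes against 20.8% in the rest. Glul, glutamine synthetase, was detected in 53.0% of them against 97.1%, Mlc1, a membrane protein of astrocyte endfeet, in 11.5% against 77.6%, and the receptor Fgfr3 in 16.2% against 66.1%. The label of mature astrocyte therefore did not hold for most of the cells with precursor genes. These genes set the other cells apart from precursors, but not from NSCs. Hopx, a gene of quiescent NSCs, was detected in 54.3% of the cells without precursor genes. Once these were matched on depth, as described below, it was found in 67.7% of positive and 72.9% of negative cells. The share of NSCs among them was not tested. Cells with precursor genes made up 6.43% of the rule's cells in experiment 1 at 2 months, 74.2% in experiment 2 and 80.4% in experiment 3 at 6-8 months. They also fell unevenly on the split, with precursor genes in 27.3% of positive and 41.8% of negative cells. Each comparison below is therefore given over all cells of the rule, as designed, and over the 1427 cells without precursor genes, of which 256 were positive, a set chosen after the data were seen.

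Most positive cells held a single Aldh1a1 transcript. Of the 352 cells, 237 held 1 UMI (67.3%), 70 held 2 and 45 held 3 or more, up to 11. A cell counted as negative may therefore hold the transcript unread. Microglia, taken as a type without the gene, gave the background: 1 of 593 microglia of experiment 1 at 2 months had a UMI (0.169%, exact 95% interval 0.00427 to 0.936%, median depth 2884 UMIs) against 119 of 824 astrocytes of that experiment (14.4%, 12.1 to 17.0%, median depth 2112 UMIs). A further 4739 cells met the astroglial part of the rule but had under 0.1% of UMIs from the mature genes. In these 3.67% had a UMI of Aldh1a1 (3.15 to 4.25%) at a median of 6225 UMIs. NSCs fall in this remainder, but its cells with precursor genes were not set apart, so 3.67% may not describe NSCs alone. These intervals cover counting error only.

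Positive cells were deeper in 6 of 7 experiments. Their median depth ran from 1323 to 8290 UMIs over the experiments and that of negative cells from 1091 to 8019, and the order turned in experiment 2 at 6-8 months (6178 against 6755). Each positive cell was therefore matched to the negative cell of its own library nearest in depth, which gave 350 pairs with medians of 4592 and 4596 UMIs. After this matching 27.4% of positive and 43.4% of negative cells held precursor genes. The mature genes supplied 0.277% and 0.203% of UMIs, against 0.276% and 0.22% before it. Matching anew without precursor genes gave 251 pairs at 3474 and 3478 UMIs, and experiment 3 at 2 months, with 3 such pairs, was left out of the tests of that set, which leaves 6 experiments. The mature genes then supplied 0.316% and 0.243%, against 0.315% and 0.276% in that set before matching. Matching on depth thus widened the gap in mature genes in both sets of cells. The part of this gap in the results was not tested.

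The order of the ages in the share of astrocytes with Aldh1a1 depended on whether cells were thinned and shallow ones left out. At full depth the shares were 32.6% (85 of 261 cells) at 1 month, 8.37, 8.70 and 14.4% in the experiments at 2 months and 9.59, 13.9 and 14.2% in those at 6-8 months. Each cell was then thinned to 2000 UMIs and shallower cells were left out, which removed 351 of 824, 207 of 215 and 39 of 69 cells at 2 months and 3 to 10 cells in each of the other experiments. The share was then 18.6% for the 1-month experiment, a mean of 19.0% with an SD of 5.28 over the 3 experiments at 2 months, and 5.72% with an SD of 1.37 over the 3 at 6-8 months. At that depth these 2 ages did not overlap, with 15.2 to 25% at 2 months and 4.62 to 7.25% at 6-8 months. A two-sided exact permutation test gave p = 0.1, the smallest that 3 experiments against 3 allow. Without thinning the difference turned to 2.07 percentage points higher at 6-8 months (p = 0.4 in the same exact test). Thinned to 1000 UMIs it was -2.03 points, with 4.55 to 8.00% at 2 months and 2.37 to 7.79% at 6-8 months, which overlap (exact permutation p = 0.3).

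Without precursor genes the order of these 2 ages again turned when cells were thinned and shallow ones left out. The thinned shares were 25% at 1 month, 16.1, 17.6 and 20% at 2 months and 11.1, 12.5 and 13% at 6-8 months, a difference of -5.7 percentage points (exact permutation p = 0.1). Not thinned, the share was 10.6 percentage points higher at 6-8 than at 2 months (exact permutation p = 0.1). Only 8 cells of experiment 2 at 2 months reached 2000 UMIs, and 5 of these were without precursor genes. The experiment at 1 month is a single one and was not tested. Chemistry differed between the 2 ages compared, and the sort of experiment 1 at 2 months differed from the others. The part of either in these shares was not tested.

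**Figure D2:**
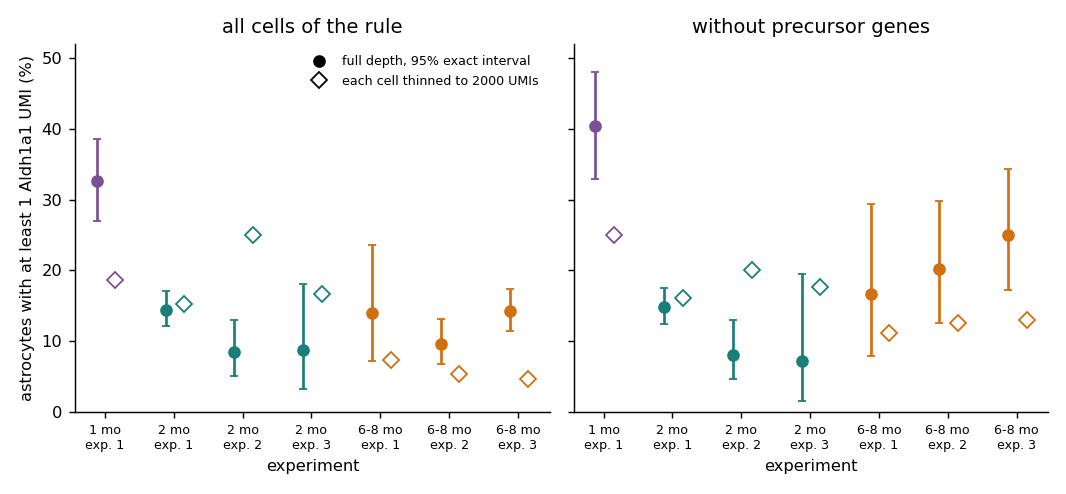
Percent of astrocytes with at least 1 UMI of Aldh1a1 in each of the 7 experiments, for all cells of the rule (left) and for those without precursor genes (right); filled circles give the full depth with exact 95% intervals and open diamonds the cells thinned to 2000 UMIs, coloured by age. The diamonds leave out cells under 2000 UMIs, which at 2 months were 351 of 824, 207 of 215 and 39 of 69 cells of the rule. They thus describe other cells than the circles. The diamonds lie below the circles at 1 and 6-8 months and above them at 2 months.

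Aldh1a1 itself, in the matched positive cells, ran from 201.2 to 770.7 CPM (counts per 1000000 UMIs, summed over a group's cells in an experiment) over the 7 experiments with a median of 298.2. It was 0 in negative cells by the rule. The gene lies on chr19:20492715-20643465, plus strand (GRCm38, GENCODE M21). Aldh1a7 is a close paralog, so reads of the pair could have been split in counting.

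Kcnk1 and Igfbp2 were higher in positive cells. Both were named as markers of this split with earlier results of these data known, so they are described with no p. Kcnk1 (chr8:125995170-126030685) ran from 142.6 to 428.2 CPM in positive cells (median 174.7) and from 43.1 to 133.0 in matched negative cells (median 93.9). The groups did not overlap, and Kcnk1 was higher in 7 of 7 experiments, by 1.17 ± 0.17 on the log2 scale (SE, n = 7). Without precursor genes the levels were 187.3 to 507.4 against 47.3 to 142.1 CPM, higher in 6 of 6 experiments by 1.5 ± 0.17 (log2, SE). A UMI of Kcnk1 was found in 59.8% of positive and 27.1% of matched negative cells of that set. In the same set the log2 difference was 1.53 over the experiments with Version 2 and 1.51 over those with Version 3.

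Igfbp2 (chr1:72824503-72852474) ran from 75.8 to 984.8 CPM in positive cells (median 174.7) and from 0 to 215.5 in matched negative cells (median 137.6). The ranges overlapped, and Igfbp2 was higher in 6 of 7 experiments by 1.40 ± 0.23 (log2, SE). The exception was experiment 2 at 6-8 months, at 75.8 in positive and 160.4 in negative cells. Without precursor genes the difference was 1.34 ± 0.18 (log2, SE), higher in 5 of 6 experiments with the same exception, and a UMI was found in 35.5% against 13.9% of cells.

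Kcnk1 was higher in cells with more Aldh1a1, and Igfbp2 less evenly so. Among cells without precursor genes and with no depth matching, Kcnk1 stood at 138.8 CPM in the 1171 cells with no Aldh1a1 UMI, 221.5 in the 160 with 1, 365.2 in the 59 with 2 and 392.6 in the 37 with 3 or more. These groups differ in depth, from a median of 2085 to 6428 UMIs, and in the share of cells from each experiment. Within the 4 experiments with at least 5 cells in each class, Kcnk1 was higher at 2 or more UMIs than at 1, and higher at 1 than at 0, in 4 of 4. Igfbp2 was higher at 2 or more than at 1 in 4 of 4 and higher at 1 than at 0 in 2 of 4.

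**Figure D3:**
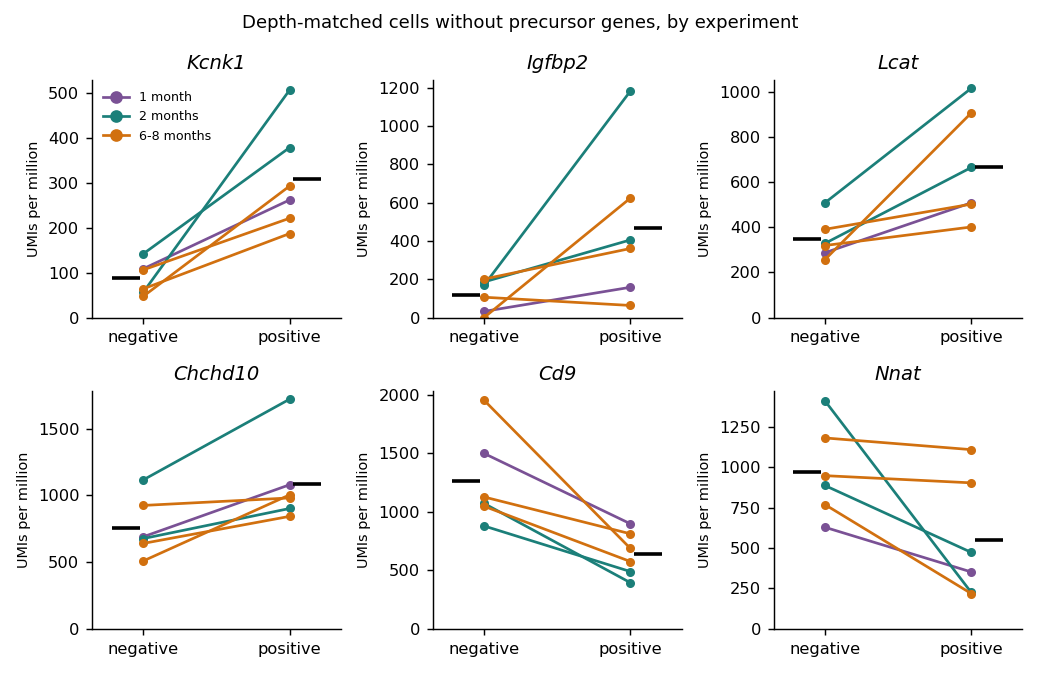
Levels in CPM of 6 genes in depth-matched negative and positive cells without precursor genes (vertical axes), with a line for each of 6 experiments coloured by age and a black bar at the mean of the experiments. Kcnk1, Lcat and Chchd10 are higher and Cd9 and Nnat lower in positive cells in 6 of 6 experiments, and Igfbp2 is higher in 5 of 6.

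Across all genes, positive cells were set against matched negative cells with edgeR's quasi-likelihood test on counts summed per experiment, with the experiment as a block and Benjamini-Hochberg adjustment over all genes tested at 0.05. Over all cells of the rule 502 of 4227 genes passed (11.9%), 301 higher (7.12%) and 201 lower (4.76%) in positive cells. Kcnk1 and Igfbp2 are among the counts and Aldh1a1 is not. Higher genes were 60.0% of the calls with TMM scaling, 43.6% with total UMIs and 47.3% with DESeq2 size factors. The count of 502 rested on the experiment at 1 month, without which 201 genes passed, and over the experiments with Version 2 alone 20 passed. Without precursor genes 114 of 2828 genes passed (4.03%), 76 higher (2.69%) and 38 lower (1.34%). That count was 42 without the experiment at 1 month, 65 without experiment 1 at 2 months and 72 without experiment 3 at 6-8 months. In both sets of cells 70 genes passed. They are 13.9% of the 502, of which only 334 had a test in both sets. They are also 61.4% of the 114, of which 112 had. Both fits draw on the same pool of cells, so the 2 calls are not independent. Of the 70 genes, 62 were higher in both and 6 lower in both (Cd9, Nnat, Marcks, Maged1, Tmsb4x and Hist3h2ba). The other 2, Vim and Hopx, turned their direction.

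Gpr17 and Bcas1 were the named genes that fell most over all cells of the rule. Gpr17 fell by 1.67 ± 0.25 on the log2 scale (SE, edgeR adjusted p = 8.8e-06, lower in 7 of 7 experiments), from a median of 229.4 CPM in negative to 31.7 in positive cells. Gpr17 and Bcas1 reached the detection needed for a test only in matched negative cells, at 36.6% and 32.3% of cells. Bcas1 (-1.36), Pcp4, which binds calmodulin (-1.35), the calcium sensor Ncald (-1.20) and Marcksl1 (-1.15) fell with edgeR adjusted p between 2e-05 and 5.3e-05. Csmd1, Khdrbs2, Igsf9b, Ly6h, Plppr1, Car8 and 3632451O06Rik made up the rest of the 12 with the largest fall, at -1.32 to -1.17. None of these 12 reached the detection needed for a test once cells with precursor genes were left out. Of 7 precursor genes listed, 6 were tested and fell, Sox10, Olig1 and Olig2 among them, with a median of -0.97 against -0.03 over all genes. Of all genes tested 4.76% fell. Without precursor genes Olig1 was the only one tested and did not pass.

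**Figure D4:**
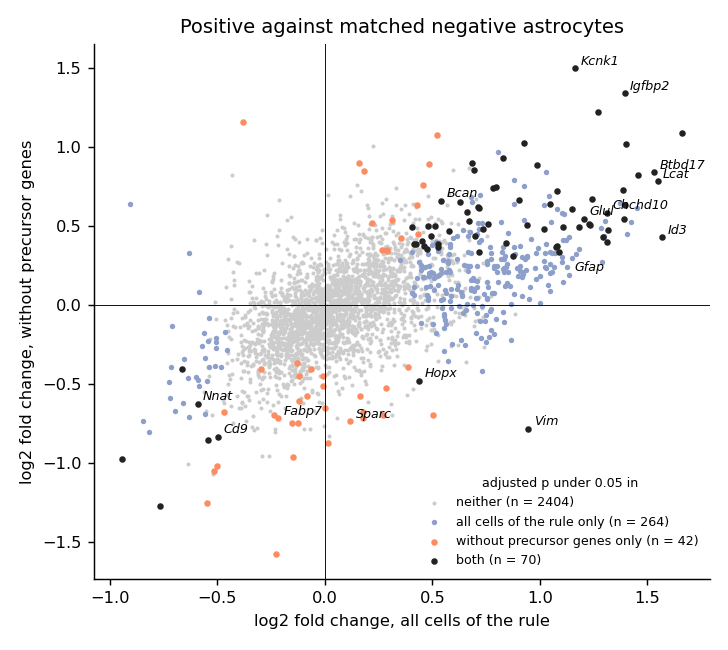
Log2 fold change of each of 2780 genes tested in both sets, positive against matched negative, over all cells of the rule (horizontal axis) and over cells without precursor genes (vertical axis), coloured by where edgeR's adjusted p was under 0.05. Most of the genes that passed over all cells of the rule lie nearer to 0 on the vertical axis, and Vim and Hopx passed in both sets with opposite signs.

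Most tested genes of astrocyte homeostasis rose over all cells, and a smaller number without precursor genes. Of 46 such genes, 43 were tested over all cells, 30 rose and none fell, with a median of 0.70 against -0.03 over all genes. Of all genes tested there 7.12% rose. Without precursor genes 7 of 43 rose and 1 fell (Mfge8), with a median of 0.09 against -0.01, where 2.69% of all genes were higher. The 7 were Btbd17, Aldh1l1, Glul, F3, Bcan, Gpr37l1 and Slc4a4. Glul ran from 2776 to 4267 CPM in positive cells and from 1680 to 3327 in matched negative cells, higher in 6 of 6 experiments by 0.55 ± 0.09 (log2, SE, edgeR adjusted p = 1.6e-06). Bcan, brevican, a proteoglycan of the matrix around synapses, rose by 0.66 and F3, tissue factor, by 0.64 (edgeR adjusted p = 8.5e-07 and 1.5e-06). Pla2g7, a phospholipase, rose by 0.98 over all cells (edgeR adjusted p = 7.1e-06) and stood at 0.17 without precursor genes (adjusted p = 0.37).

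Of the genes that rose most over all cells, some kept their call without precursor genes. Lcat, which esterifies cholesterol on lipoproteins, rose by 1.55 ± 0.17 (SE, edgeR adjusted p = 7.5e-08) and by 0.78 ± 0.12 without precursor genes (adjusted p = 1.2e-06), where it ran from 400.9 to 1015 CPM against 256.2 to 507.6. Chchd10, a protein of the space between the mitochondrial membranes, rose by 1.31 and by 0.58 (edgeR adjusted p = 1.9e-07 and 1.5e-05). Btbd17 rose by 1.53 and 0.84, Aldh1l1 by 1.46 and 0.82, and Slco1c1, a carrier of thyroid hormone, by 1.39 and 0.54. Ppp1r3g, which targets a phosphatase to glycogen, rose by 1.66 and 1.09, the NAD-consuming enzyme Cd38 by 1.40 and 1.02, and Clmn by 1.40 and 0.63. Anxa5, Acot11 and Fam20a rose by 1.43, 1.41 and 1.37 over all cells and had edgeR adjusted p of 0.06, 0.47 and 0.11 without precursor genes. Chchd10 was named after its values were seen. With mature genes at 0.2% or more as well, Lcat and Chchd10 passed. Id3, which was also among the genes with the largest rise over all cells and is given below, passed too. The others did not, with Aldh1l1 at 0.76, Clmn at 0.52, Btbd17 at 0.40, Ppp1r3g and Cd38 at 0.29 and Slco1c1 at 0.08 (edgeR adjusted p of 0.15 to 0.95).

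Genes around retinoic acid other than Aldh1a1 showed few differences. For comparison, 7.12% of all genes tested rose over all cells, and 2.69% rose and 1.34% fell without precursor genes. Of 20 genes of retinoid synthesis 5 were tested, and only Rdh14, a retinol dehydrogenase, rose over all cells (0.78, edgeR adjusted p = 0.016), with a median of 0.58 against -0.03 over all genes. None of the 5 passed without precursor genes, where their median was 0.09. Of 20 genes of the response to retinoic acid 4 were tested. Fabp5, which can carry retinoic acid, rose by 0.55 over all cells (edgeR adjusted p = 0.0094) and stood at -0.07 without precursor genes (adjusted p = 0.80). Fabp7, the brain fatty acid binding protein, fell by 0.72 without precursor genes (edgeR adjusted p = 2.4e-07), lower in 5 of 6 experiments. Of 16 other aldehyde dehydrogenases 5 were tested, Aldh1l1 and the mitochondrial Aldh2 rose over all cells (1.46 and 0.58), and of these only Aldh1l1 passed without precursor genes. Most members of these lists, the retinoic acid receptors and Cyp26b1 among them, were detected in too few cells for a test, so that a difference in them was not detectable at this depth.

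Around Kcnk1 and Igfbp2, other potassium and growth factor genes mostly did not follow once precursor genes were left out. Of 22 other genes of potassium channels and pumps 14 were tested over all cells. Of these, 5 rose, with the sodium pump subunit Atp1b2 (0.85) and the pump regulator Fxyd1 (0.96) among them, and 3 fell, Fxyd6 (-0.79) among them. Without precursor genes none of 11 rose. Of 14 genes of the insulin-like growth factor axis besides Igfbp2, Htra1, a secreted protease that cleaves binding proteins, rose in both sets by 1.02 and 0.48 (edgeR adjusted p = 1.3e-06 and 4.4e-05), and it was the only one tested without precursor genes.

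Some genes of cholesterol synthesis and of redox defence rose over all cells, and fewer passed without precursor genes. Among all genes tested the shares that rose were 7.12% over all cells and 2.69% without precursor genes. Of 21 genes of cholesterol synthesis 15 were tested and 4 rose over all cells, Msmo1, Idi1 (1.15), Insig1 and Hmgcs1 (0.53), with a median of 0.53. Without precursor genes Msmo1 (0.49) and Idi1 (0.60) passed, with edgeR adjusted p of 0.0018 and 0.024 and a median of 0.32 against -0.01 over all genes. The list's summed level was higher in positive cells in 7 of 7 experiments over all cells, by a mean log2 difference of 0.538, and in 6 of 6 without precursor genes, by 0.465. Of 22 genes of glutathione and detoxification 18 were tested and 7 rose over all cells, with Mgst1 (1.00), Gstm1 (0.76) and Gstm5 (0.71) among them. Without precursor genes 2 of 15 rose, the peroxidase Prdx6 (0.31, edgeR adjusted p = 0.022) and the mitochondrial superoxide dismutase Sod2, and the median was 0.01.

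Hopx and Vim gave opposite signs in the 2 sets of cells. Hopx, a homeodomain protein of quiescent NSCs, rose by 0.44 over all cells (edgeR adjusted p = 0.036) and fell by 0.48 without precursor genes (adjusted p = 0.0002). Vim, the intermediate filament vimentin, rose by 0.95 and then fell by 0.78 (edgeR adjusted p = 0.00066 and 0.0013), though without precursor genes it was lower in only 3 of 6 experiments. Beside the lists that follow, 7.12% of all genes tested rose and 4.76% fell over all cells. Without precursor genes 2.69% rose and 1.34% fell. Of 22 stem cell genes 8 were tested over all cells and 2 rose, Hopx and Thrsp. Of 6 tested without precursor genes 3 fell, Hopx and St6galnac5 among them, with a median of -0.33. The part of NSCs among the negative cells in this was not tested. Among genes of fibrous, Gfap-high astrocytes, 6 of 11 rose over all cells, with Gfap at 1.14 and Id2 at 0.66, and 1 fell. Without precursor genes Id2 (0.59) and Id3 (0.43) rose and Cd9, Sparc (-0.74) and Vim fell, and Gfap stood at 0.19 (edgeR adjusted p = 0.50).

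Lists of signalling, synaptic and dissociation genes were counted in the same way, beside 7.12% of all genes higher over all cells and 1.34% lower without precursor genes. Of 30 genes of the Shh, Notch, Wnt and BMP pathways 9 were tested, Fzd2 rose over all cells (0.75, edgeR adjusted p = 0.032) and Notch2 fell without precursor genes. Of 20 secreted genes that act on synapses 14 were tested over all cells, where 2 rose and 3 fell, with Vcan (-0.85) and Tnr (-0.79), matrix genes that precursors express, among those that fell, beside 11.9% of all genes called in either direction. None of 8 passed without precursor genes. Of 19 immediate early genes, which tissue dissociation induces, 5 were tested over all cells and Dusp1 rose (1.22, edgeR adjusted p = 0.0015). Without precursor genes 2 were tested and fell, Jun (-0.69, edgeR adjusted p = 0.0006) and Jund, beside 1.34% of all genes lower. At 6-8 months Jun was higher in positive cells in experiments 1 (405.9 against 384.2 CPM) and 2 (369.2 against 287.0 CPM). It was lower in the rest, with 282.0 against 834.5 CPM in experiment 3 at 6-8 months. The sum of the list in that set ran from 513.3 to 1466 CPM in positive and from 845.6 to 3107 CPM in negative cells, lower in 6 of 6 experiments, and its part in the other results was not tested.

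Few genes passed when the cells were held to a stricter limit of 0.2% of UMIs from the mature genes. Over all cells of the rule that met it 22 of 2711 genes passed (0.812%). Of those without precursor genes 10 of 2623 passed (0.381%), over 6 experiments with 5 to 98 pairs each. Kcnk1 and Igfbp2 are counted among the 10. These cells gave Kcnk1 at 0.73 ± 0.18 and Igfbp2 at 0.70 ± 0.17 (log2, SE), each higher in 5 of 6 experiments and described with no p, as above. Kcnk1 was at 282.9 CPM in positive and 300.5 CPM in negative cells of experiment 1 at 6-8 months. Id3, an inhibitor of helix-loop-helix factors, rose by 0.68 ± 0.14 (edgeR adjusted p = 0.0012), Lcat by 0.56 ± 0.14 and Chchd10 by 0.46 ± 0.11 (adjusted p = 0.013 for both), each higher in 6 of 6 experiments. In experiment 2 at 2 months Chchd10 was nearly level, at 902.0 CPM in positive and 901.8 CPM in negative cells. Mfge8, a secreted protein that bridges dying cells to phagocytes, fell by 0.46 ± 0.10 (edgeR adjusted p = 0.0019) and the tetraspanin Cd9 by 0.52 ± 0.12 (adjusted p = 0.013), each lower in 6 of 6 experiments. Nnat, neuronatin, fell by 0.55 (edgeR adjusted p = 0.0076, lower in 4 of 6), the zinc finger factor Zbtb20 by 0.52 (adjusted p = 0.013, lower in 5 of 6) and the nuclear RNA Malat1 by 0.35 (adjusted p = 0.039, lower in 5 of 6).

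**Figure D5:**
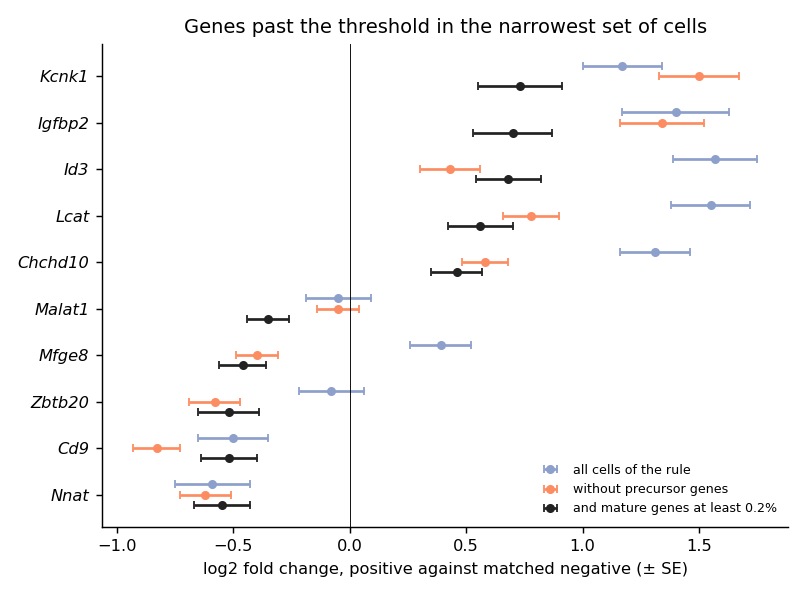
Log2 fold change (± SE) of the 10 genes that passed in cells with at least 0.2% of UMIs from the mature genes and no precursor genes, in that set and in the 2 wider sets. Kcnk1, Igfbp2, Id3, Lcat and Chchd10 lie above 0 in the 3 sets. Cd9 and Nnat lie near -0.5 or below in each, and Mfge8 lies above 0 over all cells of the rule. Kcnk1 and Igfbp2 were named with earlier results of these data known and are described with no p.

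Cd9 and Nnat passed in the 3 sets of cells. Cd9 ran from 394.6 to 897.8 CPM in positive and from 879.4 to 1953 in matched negative cells without precursor genes, and was lower in 6 of 6 experiments by 0.83 ± 0.10 (log2, SE, edgeR adjusted p = 2.7e-10). Nnat ran from 218.6 to 1108 against 628.2 to 1410 and was lower in 6 of 6, though in experiments 2 and 3 at 6-8 months the paired levels lay close together. Under the stricter limit the count of genes depended on single experiments. Without the experiment at 1 month 2 genes passed, without experiment 1 at 2 months 1 gene passed, and without experiment 3 at 6-8 months 2 genes passed.

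The change of the positive cells was compared between ages with an interaction term. Over all cells of the rule 38 of 4227 genes differed (0.899%), all with a higher positive-minus-negative change at 6-8 than at 2 months. The 38 held precursor genes (Cspg4, C1ql1, Olig1, Neu4) beside astrocyte genes such as Mt1, Mt2, Sox9 and Fgfr3. Without precursor genes 0 of 2828 differed (0.0%) by edgeR's test, with 70 at an unadjusted p under 0.05. At 2 months that fit held only experiments 1 and 2, with 113 and 14 pairs, and Cspg4 and C1ql1 had no test in it. Its 0 thus cannot show that the change was alike at these ages. Age and chemistry version cannot be told apart in this term, and the sort of experiment 1 at 2 months also differed.

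Markers of other cell types were read beside these results. Over all cells the summed precursor genes ran from 113.1 to 6639 CPM in positive and from 1121 to 9309 in negative cells, lower in positive cells in 6 of 7 experiments. Without precursor genes the sum ran from 100.6 to 338.2 against 0 to 189.4, with 5 of 7 members at 0 in each group by construction. Microglial genes over all cells ran from 0 to 3728 in positive and from 0 to 921.1 in negative cells. Without precursor genes they ran from 0 to 56.4 in positive and from 0 to 960.6 in negative cells, endothelial genes from 0 to 112.7 against 53.2 to 192.1 (lower in 6 of 6) and mural genes from 0 to 300.1 against 79.1 to 165.7. Of the endothelial list Pltp was the only gene tested, and it fell. The genes of neuroblasts and neurons ran over all cells from 0 to 169.2 CPM in positive and from 58.7 to 258.7 CPM in negative cells, lower in 7 of 7 experiments. Without precursor genes they ran from 0 to 73.3 against 33.8 to 338.4 CPM and were lower in 3 of 6, or in 6 of 6 when Stmn2, a gene of the astrocyte rule, was left out of the sum. None of these genes was detected in enough cells for a test. No cells were removed as doublets beyond the limit of 1 marker of another type, and the part of such cells in the results was not tested.

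Genes detected, mitochondrial share and ribosomal protein genes were compared per experiment. Over all cells thinned to 2000 UMIs, positive cells held 53.3 ± 37.5 fewer genes than matched negative cells (SD, n = 6, fewer in 6 of 6; two-sided exact sign-flip test p = 0.0312, adjusted p = 0.0938 over 24 measures). The mitochondrial share was 4.70% and 4.27%, higher in 6 of 7 (exact sign-flip p = 0.0469, adjusted p = 0.0938). The summed ribosomal protein genes were lower in positive cells in 7 of 7 experiments, by a mean log2 difference of -0.215 (adjusted p = 0.075 in the exact sign-flip test), and without precursor genes in 6 of 6, by -0.144 (adjusted p = 0.0938). The smallest p that 6 experiments allow is 0.0312. Without precursor genes positive cells held 15 fewer genes (exact p = 0.188, n = 5) and that in mitochondrial share 0.0343 percentage points (exact p = 0.906, n = 6).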

How the data were processed

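Reads had been mapped by the authors with Cell Ranger 3.0.2 (per the labels also cutadapt 1.18 and Seurat) to mm10 with reporter elements added, and the deposited values are raw UMI counts per gene and barcode, not normalized. Barcode suffixes gave the libraries, and 0 sample columns were unmapped. A barcode entered with more than 500 detected genes and less than 10% of its UMIs from mitochondrial genes. Positive cells were matched within libraries to negative cells within 0.2 on the log2 depth scale, experiments with under 5 pairs were left out, and genes with a UMI in 20% of either group were tested with edgeR 4.0.16 (R 4.3.3), which blocks the experiment since positive and negative cells come from the same mice. P-values measure the spread between experiments. A gene could enter the test through 1 group alone. Over all cells Gpr17 and Bcas1 did so through negative cells and Aldh1l1 through positive cells. Alternatives used DESeq2 1.42.0, other scalings, filters and cells. Log2 values come from the fit, and levels are counts per 1000000 UMIs (CPM) summed over a group's cells. The members, lists and tests were chosen with earlier results of these data known. Genes were named by the largest changes that held in all experiments but at most 1 and without matching (12 in each direction), by the 4 lowest p in each list, and others, without precursor genes, after their values were seen. Some genes are not reported here. In simulated counts over 4239 genes, 200 changed by a log2 of 1, 68.0% were recovered and 7.73% of calls were false. Over 2839 genes, without precursor genes, these were 83.8% and 4.34%.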

Additional observations from a re-analysis of the deposited data

Results flagged for a closer look

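Over the experiments, 8 of 62 named genes had 1 experiment far from the rest in the positive-minus-negative log2 difference of CPM (prior count of 2), where chance marks about 1 in 20 groups. All but 1 lay in experiments 2 and 3 at 2 months, which held 17 and 6 pairs of cells. In experiment 2 at 2 months Kcnk1 stood at 3.10 (others 0.54 to 1.43) and Fxyd6 at -4.17 (others -1.48 to -0.19). In experiment 3 at 2 months Acot11 stood at 4.03 (others 0.48 to 1.59), Jun at 3.30 (others -1.17 to 0.57), Plppr1 at 3.11 (others -2.74 to -0.55), Vim at -4.04 (others 0.43 to 1.39) and Idi1 at -4.99 (others -0.01 to 1.76). In experiment 1 at 6-8 months Rdh14 stood at 2.65 (others -0.01 to 0.88).

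The change of 5 named genes differed between 6-8 and 2 months over all cells of the rule by the interaction term of edgeR's quasi-likelihood test. The differences in log2 change were 1.10 ± 0.30 (SE) for Nnat (adjusted p = 0.038), 1.33 ± 0.28 for Gstm1 (0.0011), 1.74 ± 0.34 for Sparc (0.00031), 2.67 ± 0.68 for Ncald (0.017) and 3.53 ± 0.82 for Tnr (0.0046). Without precursor genes those of Nnat, Gstm1 and Sparc were 0.89, 0.08 and 0.89, each with an adjusted p of 1.0, and Ncald and Tnr were not tested.

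Oligodendrocytes, which enter none of the comparisons, also held Aldh1a1. A UMI was found in 335 of 5864 (5.71%, exact 95% interval 5.13 to 6.34%) at a median depth of 4400 UMIs, against 1 of 630 microglia (0.159%) at a median of 2921.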

How the results depend on the processing

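From 502 genes called over all cells of the rule, of 4227 tested, the count became 199 of 1642 with cells thinned (12.1% against 11.9%), 161 of 4863 with positive cells at 2 UMIs or more, 80 of 2882 without any marker of another cell type, 22 of 2711 with mature genes at 0.2% or more, 114 without precursor genes, 10 with both of these, 20 in Version 2 alone and 234 with DESeq2, and 201 to 546 leaving out each experiment. With a test for genes with a UMI in 10% of all matched cells, a limit that does not use the groups, 592 of 6867 passed. The 56 named genes compared there stayed on their side of the threshold. Without the experiment as a block, which pairs cells of the same mice, 0 genes passed (218 at an unadjusted p under 0.05 in edgeR). Of 114 genes called without precursor genes, the count became 41 at 2 UMIs or more, 10 at 0.2% and 1 without the replicate block. It was 42 to 125 leaving out each experiment, 47 in Version 3 and 0 in Version 2 (78 at an unadjusted p under 0.05 in edgeR). That Version 2 fit held only experiments 1 and 2 at 2 months, with 113 and 14 pairs. Its 0 from so few experiments cannot show that the calls depend on chemistry. Under both limits, where 10 genes passed, 1 to 17 passed leaving out each experiment. The difference between ages fell to 0 genes without precursor genes (70 at an unadjusted p under 0.05), in a fit without experiment 3 at 2 months. The age difference in share was -16.2 percentage points at 3000 UMIs (exact permutation p = 0.4). At that depth experiments 1, 2 and 3 at 2 months kept 107, 2 and 8 cells, with shares of 34.6, 0 and 37.5%. The sign at 3000 UMIs thus rests on few cells. With mature genes at 0.2% the difference was -3.23 points (exact permutation p = 0.6). When not thinned it turned from -13.2 to 2.07 points, and from -5.7 to 10.6 without precursor genes.

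Over 62 genes, 1189 of 1627 values under an alternative stayed on their side of the threshold and 415 lost their call. Those that turned, on the log2 scale, were as follows. Without precursor genes Fabp5 stood at -0.07, Vim at -0.78, Thrsp at -0.18, Hopx at -0.48 and Fzd2 at -0.07. With mature genes at 0.2% as well, Pla2g7 stood at -0.03, Gstm1 at -0.06, Aldh2 at -0.22, Fabp5 at -0.06, Thrsp at -0.11, Hopx at -0.20 and Fzd2 at -0.24, and Vim turned back to 0.17. With no marker of another type Aldh2 stood at -0.01, Fabp5 at -0.14, Vim at -0.13, Hopx at -0.38 and Fzd2 at -0.01. With mature genes at 0.2% alone Aldh2 stood at -0.03 and Fzd2 at -0.12. In Version 2 alone Gstm1 stood at -0.05, Hopx at -0.34 and Fzd2 at -0.38. The cause was not tested.

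Depth limits the split itself, since 67.3% of positive cells rest on 1 UMI, and experiments with few pairs weigh little. Most genes of the retinoid lists were too sparse to test.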
